A study of Mus musculus with 6 samples.

Results

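The immediate early and AP-1 genes examined here are 10 genes, Fos, Fosb, Fosl2, Jun, Junb, Jund, Egr1, Ier2, Ier3 and Myc. They were taken by name from the 25718 genes of the deposited expression table, with earlier results of these data known. All 10 were found in the table once. RNA was sequenced from primary hepatocytes, the main cell type of the liver, with 3 libraries from alcohol-fed WT mice and 3 from alcohol-fed S100a16KO+/- mice. In the labels the latter genotype is named S100A16 knockdown, and the study's methods describe heterozygous knockout mice, made by crossing mice with a floxed S100a16 allele to EIIa-Cre mice on a C57BL/6 background. EIIa-Cre recombines in the early embryo, so the deletion is not limited to hepatocytes. Per the methods, male mice aged 8 to 10 weeks received a control liquid diet for 5 days, a diet with 5% ethanol for 10 days and a gavage of ethanol at 5 g/kg, and tissues were collected 9 h after it. Hepatocytes were obtained by collagenase perfusion and Percoll separation. Whether the sequenced cells were plated and kept in medium before RNA was extracted is not given in the sources used here, and the part of isolation or culture in the levels of these rapidly responding genes was not tested. All 6 libraries came from alcohol-fed mice, so no value here describes an effect of alcohol.

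Immediate early genes are transcribed within minutes of a growth factor, hormone or stress signal, without the need for new protein synthesis. Many of them encode transcription factors. AP-1 is a dimer of basic leucine zipper proteins: Jun proteins can pair with each other or with Fos proteins, whereas Fos proteins bind DNA only with a partner. MAP kinase pathways raise Fos and Egr1 transcription through serum response factor and its ternary complex partners, and the transcripts of several members are unstable and short-lived. In the liver, Fos, Jun and Myc are known for their induction at the start of regeneration.

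Promoter sequences of 7 of the 10 genes were searched in RefSeq windows on GRCm38.p6. The windows run from 250 bases before to 50 bases after an annotated transcription start. Those of Egr1, Ier2 and Myc were not searched, so nothing is said here of their motifs. The windows of the 4 genes that were higher in S100a16KO+/- hepatocytes are shown with that of Jun, the main AP-1 partner, which was not called. Capitals mark matches, on either strand, to TGACGT (the core of the cAMP response element), TGANTCA (the AP-1 site), TGACNTCA (a longer element of the same kind), GGAATTTCC (an NF-kB site), GCGNGGGCG (an EGR site) and TATAAA (the TATA box). TGACNTCA and GGAATTTCC were added after the sequences had been seen, and TGACGT overlaps TGACNTCA in part.
Fos, chr12:85473640-85473939, plus strand: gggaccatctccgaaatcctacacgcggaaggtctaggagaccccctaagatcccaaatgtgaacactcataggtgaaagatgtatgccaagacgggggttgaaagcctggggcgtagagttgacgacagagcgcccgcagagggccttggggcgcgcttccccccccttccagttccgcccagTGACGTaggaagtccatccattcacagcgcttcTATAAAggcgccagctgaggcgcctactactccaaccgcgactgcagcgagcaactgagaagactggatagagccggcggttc
Fosb, chr7:19309996-19310295, minus strand: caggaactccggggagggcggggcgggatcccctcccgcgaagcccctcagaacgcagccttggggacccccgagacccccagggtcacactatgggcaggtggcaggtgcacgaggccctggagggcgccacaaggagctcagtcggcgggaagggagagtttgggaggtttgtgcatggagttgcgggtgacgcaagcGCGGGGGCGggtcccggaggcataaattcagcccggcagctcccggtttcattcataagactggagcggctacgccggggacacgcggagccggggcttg
Fosl2, chr5:32136222-32136521, plus strand: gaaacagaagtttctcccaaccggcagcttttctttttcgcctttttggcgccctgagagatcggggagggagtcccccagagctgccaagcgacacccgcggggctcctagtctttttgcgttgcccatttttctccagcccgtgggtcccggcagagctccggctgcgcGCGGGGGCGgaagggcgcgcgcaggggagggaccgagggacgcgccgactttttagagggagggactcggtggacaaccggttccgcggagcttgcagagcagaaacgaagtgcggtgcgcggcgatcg
Ier3, chr17:35821463-35821762, plus strand: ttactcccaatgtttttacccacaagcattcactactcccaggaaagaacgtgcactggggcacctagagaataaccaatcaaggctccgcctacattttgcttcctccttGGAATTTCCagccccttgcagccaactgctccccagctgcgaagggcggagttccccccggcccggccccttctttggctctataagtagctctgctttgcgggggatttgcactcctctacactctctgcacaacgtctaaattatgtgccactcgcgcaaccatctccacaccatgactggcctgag
Jun, chr4:95052173-95052472, minus strand: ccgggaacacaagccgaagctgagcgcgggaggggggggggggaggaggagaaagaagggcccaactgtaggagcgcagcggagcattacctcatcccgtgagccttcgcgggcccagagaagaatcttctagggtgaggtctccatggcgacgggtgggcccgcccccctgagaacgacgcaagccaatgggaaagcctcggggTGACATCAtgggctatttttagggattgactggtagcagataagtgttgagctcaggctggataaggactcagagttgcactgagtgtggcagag
In the Fos window, TGACGT began 66 bases and TATAAA 33 bases before the start. The Jun window held TGACATCA, 45 bases before the start, and the Ier3 window held GGAATTTCC, 139 bases before it. The Fosb and Fosl2 windows each held 1 EGR site, which began 50 and 79 bases before the start. The Junb window, not shown, held TATAAA beginning at the first base after the start. TGANTCA was found in none of the 7 windows, including those of Junb and Jund, and neither was CACGTG (the E-box) or the CArG box, the site of serum response factor, at this length. Of 32851 windows in the table, 7.51% held TGACGT, 7.81% TGANTCA, 8.83% TGACNTCA, 0.317% GGAATTTCC, 5.55% GCGNGGGCG and 13.6% TATAAA. The E-box was in 7.15% and the CArG box in 1.63% of them. The Fosb and Fosl2 windows shared the EGR site, and no motif of this set was found in all 4 windows of the upregulated genes. The start in the Fosl2 window lies 671 bases downstream of the start of the gene in the deposited table. That in the Junb window lies 30 bases upstream of the start of Junb given there. The Jund window ends at 70697788, before the start of that gene at 70698949 in the deposited table. For Jund the bases next to that start were thus not searched. These matches describe the letters only.

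The estimated counts of a library added up to between 67658095 and 71807834. Low counts pile up at 4, so that 1 fragment was worth about 4 counts and the libraries held about 16914524 to 17951958 fragments. The smallest member count was 64, of Ier3 in WT replicate 3, or about 16 fragments, and all 10 members passed the filter on low counts. S100a16 itself had 1001, 1056 and 1107 counts in WT and 433, 390 and 366 counts in S100a16KO+/- libraries, a fall by 1.40 on the log2 scale. WT replicate 1 and S100a16KO+/- replicate 2 stood apart from the other libraries of their genotype. Mitochondrial transcripts took 21.1% and 20.1% of their counts, against 17.0% to 18.6% in the others. The hepatocyte marker genes, among them Alb and Apoa1, summed to between 106797 and 121279 CPM (counts per 1000000 counts of the library) in every library. Of these 8 genes, 2 were higher and 2 lower in S100a16KO+/- hepatocytes (adjusted p under 0.05, edgeR), where 22.8% of all tested genes were called. No label states that the 3 libraries of a genotype came from separate mice, so p values measure the spread between these libraries.

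CPM values were scaled by the trimmed mean of M values (TMM), and genotypes were compared with edgeR's quasi-likelihood test, two-sided, with Benjamini-Hochberg adjustment over all 15957 tested genes. In S100a16KO+/- hepatocytes the 3 Fos family transcripts Fos, Fosb and Fosl2 were upregulated, as was Ier3, whereas Egr1 and Ier2 were modestly downregulated. No transcript of the Jun family passed the test, and neither did Myc. At an adjusted p under 0.05, 6 of the 10 members were called, 4 higher and 2 lower, against 22.8% of all tested genes, 11.6% higher and 11.2% lower. The median log2 fold change of the members was 0.09, and that of all tested genes was 0.01. The study's own criterion asks for at least 2-fold with p under 0.05 before adjustment. It was met by 2 members, Fosb and Ier3, both higher, against 4.52% of tested genes, 2.9% higher and 1.62% lower. The CPM ranges of the genotypes did not overlap for 4 members that were higher and 3 that were lower, against 37.9% of tested genes, 19.2% higher and 18.6% lower.

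**Figure D1:**
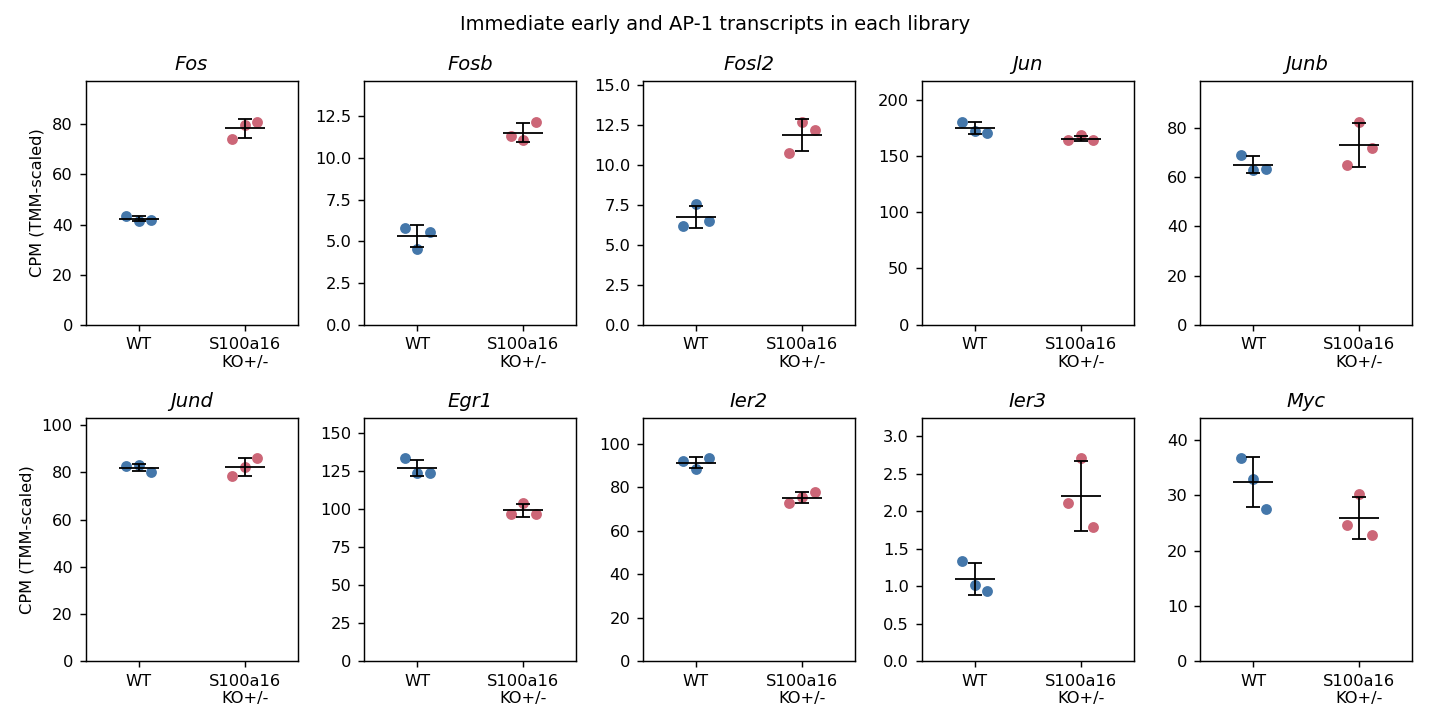
TMM-scaled CPM (vertical axes, from 0, a separate scale for each gene) of the 10 genes in the WT (blue) and S100a16KO+/- (red) libraries, with 1 point per library, replicates 1 to 3 from left to right, and the mean and SD of 3 as a black bar. Fos, Fosb, Fosl2 and Ier3 lay higher in every S100a16KO+/- library, Egr1, Ier2 and Jun lay lower, and the groups overlapped for Junb, Jund and Myc.

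Fos (ENSMUSG00000021250), which encodes the founding Fos protein, lies on the plus strand of chromosome 12 from 85473890 to 85477273. Its level was 43.5, 41.5 and 41.9 CPM in WT replicates 1, 2 and 3 and 74.3, 79.8 and 81.1 CPM in the S100a16KO+/- replicates. The lowest S100a16KO+/- library stood far above the highest WT library. The rise was 1.85-fold, or 0.89 ± 0.06 on the log2 scale (SE, 95% interval 0.76 to 1.01, adjusted p = 5.41e-08, edgeR). The spread of Fos between replicates was small, with a coefficient of variation of 2.56% in WT and 4.62% in S100a16KO+/- libraries. The 2114 tested genes within 2-fold of its level had medians of 4.61% and 5.03%.

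Fosb (ENSMUSG00000003545, chromosome 7 from 19302696 to 19310051, minus strand) encodes a Fos protein that also exists in a truncated form. WT libraries held 396, 322 and 381 counts of it and S100a16KO+/- libraries 783, 713 and 878 counts, or 5.80, 4.57 and 5.57 CPM against 11.3, 11.1 and 12.2 CPM. The groups did not overlap. This was the largest rise among the members in this comparison, 1.12 ± 0.12 on the log2 scale (SE, adjusted p = 1.08e-05, edgeR), with a 95% interval from 0.86 to 1.38. Its order with Ier3 was not firm. Without S100a16KO+/- replicate 3, Ier3 rose by 1.13 and Fosb by 1.08 on the log2 scale. The table is at gene level, so the full-length and truncated forms were not separated.

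Fosl2 (ENSMUSG00000029135, chromosome 5 from 32135801 to 32157842, plus strand) encodes FRA2. Its values were 6.19, 7.54 and 6.47 CPM in WT and 10.8, 12.7 and 12.2 CPM in S100a16KO+/- libraries, without overlap. The difference came to 0.82 ± 0.12 on the log2 scale (SE, 95% interval 0.57 to 1.07, adjusted p = 0.000133, edgeR). Fosl1, the remaining member of the Fos family, was not analysed here.

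The Jun side of AP-1 gave no call. Jun (ENSMUSG00000052684, chromosome 4 from 95049034 to 95052222, minus strand) was at 180.5, 172.3 and 170.8 CPM in WT and 164.3, 168.5 and 163.8 CPM in S100a16KO+/- libraries. All 3 S100a16KO+/- values lay just under the lowest WT value, and the difference was small. On the log2 scale it was -0.08, with a 95% interval from -0.18 to 0.03 (adjusted p = 0.320, edgeR). Junos, annotated on the opposite strand from 95051534 to 95167318, overlaps the 5′ end of Jun and had at most 30 counts in any library, against at least 10828 for Jun.

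Junb (ENSMUSG00000052837, chromosome 8 from 84976910 to 84978718, minus strand) encodes a weaker activator that can oppose Jun at some targets. It was at 69.2, 63.0 and 63.3 CPM in WT and 65.0, 82.7 and 71.8 CPM in S100a16KO+/- libraries, so that the groups overlapped. S100a16KO+/- replicate 2 was the highest. Its log2 fold change of 0.17 had a 95% interval from -0.004 to 0.34 (adjusted p = 0.158, edgeR). Without S100a16KO+/- replicate 1 it was 0.24 and passed (adjusted p = 0.0471), and without both WT replicate 1 and S100a16KO+/- replicate 2 it was 0.11 (adjusted p = 0.240).

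Jund (ENSMUSG00000071076, chromosome 8 from 70698949 to 70700616, plus strand), the Jun gene known for steady expression in resting cells, was the flattest member. It was at 82.7, 83.0 and 80.3 CPM in WT and 78.3, 82.3 and 86.0 CPM in S100a16KO+/- libraries. The 2 groups covered nearly the same values. The 95% interval of its log2 fold change ran from -0.12 to 0.12, and the sign turned under other scalings, so that no direction is given. Gm11175 lies within Jund on the opposite strand and had at most 16 counts in any library.

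Egr1 (ENSMUSG00000038418, chromosome 18 from 34859823 to 34864984, plus strand) encodes a zinc finger factor that shares its upstream signals with Fos. In these libraries it moved in the direction opposite to Fos, with 133.2, 123.7 and 123.9 CPM in WT and 96.7, 103.9 and 96.8 CPM in S100a16KO+/- libraries. The groups did not overlap. The level fell by 0.36 on the log2 scale (SE 0.06, adjusted p = 0.000315, edgeR), to 78.1% of WT. The interval of the log2 fold change ran from -0.48 to -0.24.

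Ier2 (ENSMUSG00000053560, chromosome 8 from 84661331 to 84662854, minus strand), a small nuclear immediate early protein gene, was also lower. It was at 92.0, 88.4 and 93.2 CPM in WT and 72.6, 75.3 and 77.7 CPM in S100a16KO+/- libraries. Every S100a16KO+/- value lay below every WT value. The level fell by 0.28 on the log2 scale (SE 0.05, adjusted p = 0.00182, edgeR), and the 95% interval of the log2 fold change ran from -0.40 to -0.16.

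Ier3 (ENSMUSG00000003541, chromosome 17 from 35821684 to 35822923, plus strand), which encodes a stress-inducible regulator of cell survival, was the least abundant member in CPM. It had 91, 72 and 64 counts in WT and 146, 174 and 129 in S100a16KO+/- libraries, or 1.33, 1.02 and 0.935 CPM against 2.11, 2.71 and 1.79 CPM. The ranges did not overlap, but the gap between WT replicate 1 and S100a16KO+/- replicate 3 was narrow. The rise was 1.0 ± 0.25 on the log2 scale (SE, adjusted p = 0.0106, edgeR), with a wide 95% interval from 0.46 to 1.55. Without S100a16KO+/- replicate 2 it was 0.83 and no longer passed (adjusted p = 0.0562). Without that library and WT replicate 1 it was 0.99 (adjusted p = 0.0359).

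Myc (ENSMUSG00000022346, chromosome 15 from 61985391 to 61990350, plus strand), which encodes a growth-promoting helix-loop-helix factor, varied more between replicates than most genes of its level. It was at 36.6, 32.9 and 27.5 CPM in WT and 24.7, 30.2 and 22.9 CPM in S100a16KO+/- libraries. S100a16KO+/- replicate 2 lay above WT replicate 3, so the groups overlapped. The coefficients of variation were 14.1% and 14.6%, against medians of 5.55% and 6.09% for the 3628 tested genes within 2-fold of its level. Its difference of -0.32 on the log2 scale (SE 0.12, 95% interval -0.59 to -0.05, adjusted p = 0.0853, edgeR) did not pass. It passed without S100a16KO+/- replicate 2 (-0.44, adjusted p = 0.00747), without WT replicate 3 (-0.43, adjusted p = 0.0202), and without both WT replicate 1 and S100a16KO+/- replicate 2 (-0.35, adjusted p = 0.00994). Without WT replicate 1, WT replicate 2, S100a16KO+/- replicate 1 or S100a16KO+/- replicate 3 it did not pass, with values from -0.31 to -0.22 (adjusted p from 0.184 to 0.227). With DESeq2's Wald test it passed (-0.33, adjusted p = 0.0273). The sign was negative in every setting tried.

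**Figure D2:**
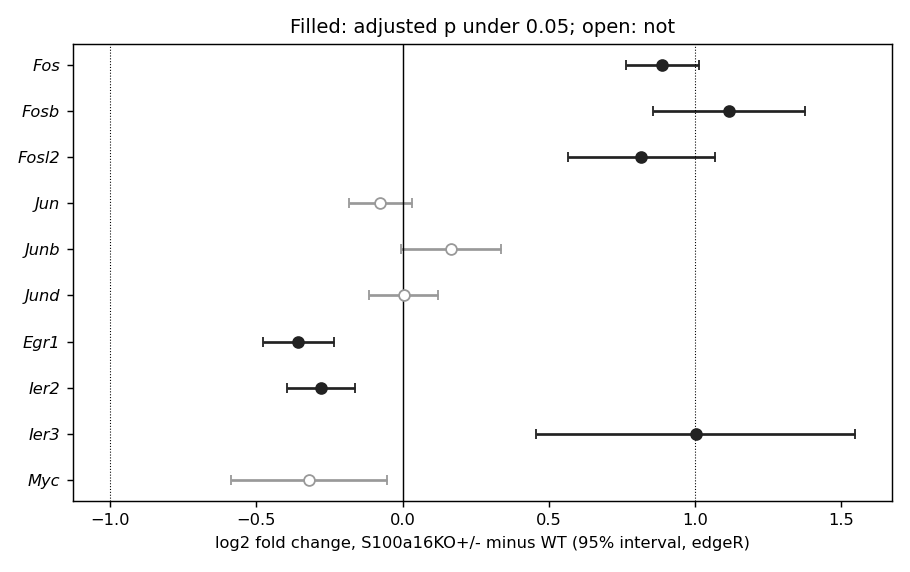
Log2 fold change of each gene, S100a16KO+/- minus WT, from edgeR (horizontal axis) with its 95% interval. Filled points had an adjusted p under 0.05 and dotted lines mark 2-fold. Fosb and Ier3 lie at 1.12 and 1.0, Fos and Fosl2 at 0.89 and 0.82, and the Jun family between -0.08 and 0.17.

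Levels of different genes were compared as FPKM, the authors' value scaled for exon length and for depth. In WT hepatocytes the order from high to low was Ier2, Jun, Jund, Junb, Egr1, Fos, Myc, Ier3, Fosb and Fosl2. Ier2 was at 53.4 ± 2.17 FPKM, Jun at 48.8 ± 0.928 FPKM and Jund at 43.9 ± 1.96 FPKM (SD, n = 3 each). Ier3, Fosb and Fosl2 were all under 1 FPKM on average, and neighbours among these 3 overlapped in their library values. The other neighbours in WT did not overlap. In S100a16KO+/- hepatocytes Jun, Ier2 and Jund could not be put in order, at 46.6 ± 1.61, 44.3 ± 2.92 and 44.3 ± 3.32 FPKM. Fos and Egr1 changed places. Fos was at 16.1 ± 0.308 FPKM and Egr1 at 25.2 ± 0.192 FPKM in WT, against 29.9 ± 1.93 and 19.8 ± 0.259 FPKM in S100a16KO+/- libraries. The ratio of Egr1 to Fos was 1.61, 1.56 and 1.55 in WT and 0.683, 0.684 and 0.626 in S100a16KO+/- replicates. For Fosb and Fosl2 the FPKM rests on exon lengths of 6243 and 9680 bases that join the exons of all annotated transcripts, whereas their longest transcripts have 3782 and 6537 bases, which lowers their FPKM against that of single-exon genes such as Jun.

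The pool of Fos family transcripts grew while that of the Jun family did not. Summed over Fos, Fosb and Fosl2, the level was 17.0, 17.7 and 17.6 FPKM in WT and 31.5, 31.3 and 35.1 FPKM in S100a16KO+/- libraries. Summed over Jun, Junb and Jund, it was 122.5, 127.9 and 124.1 FPKM against 122.8, 125.3 and 132.9 FPKM. The Fos family thus came to between 13.8% and 14.2% of the Jun family in WT and between 25.0% and 26.4% in S100a16KO+/- libraries. Within the Fos family, Fos itself made up 91.5% to 92.2% of the FPKM in every library. Within the Jun family, Jun held 39.0% to 39.2% in WT and 35.7% to 38.3% in S100a16KO+/- libraries, and Junb held 25.1% to 26.5% and 26.7% to 30.9%. These sums are given as a description, with no test. The ratio of Fos to Jun was 0.327, 0.326 and 0.333 in WT and 0.613, 0.642 and 0.671 in S100a16KO+/- libraries, 1.95-fold higher on average. Fos was higher and Jun lower without overlap between the genotypes, so the outcome of a permutation test on this ratio was fixed beforehand. The exact test over the 20 assignments of the libraries, two-sided, gave p = 0.1, the smallest value that 3 against 3 allow. It adds no support.

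**Figure D3:**
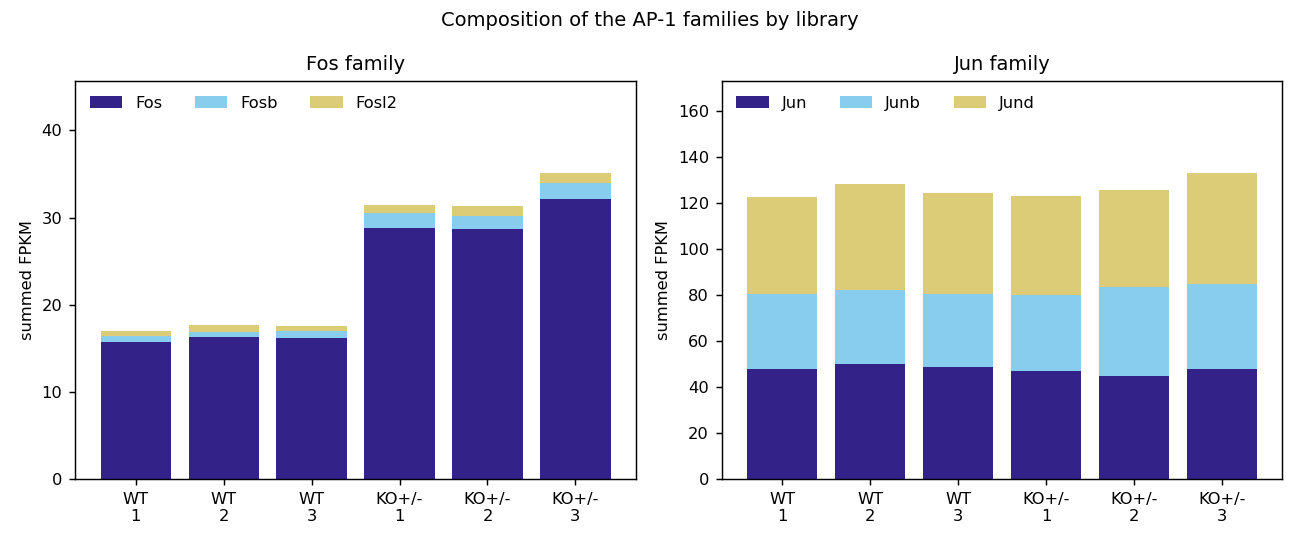
Summed FPKM (vertical axis, from 0) of the Fos family (left) and the Jun family (right) in each library, with each bar divided by gene. The Fos family bars stand at 17.0 to 17.7 FPKM in WT and 31.3 to 35.1 FPKM in S100a16KO+/- libraries, and the Jun family bars between 122.5 and 132.9 FPKM in both.

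Other genes of the pathway were read from 7 lists chosen by name, with earlier results of these data known. A higher share of calls among them is thus no test of the pathway. Over all of them, 37 of 166 tested genes were higher and 29 lower, or 39.8% against 22.8% of all tested genes, and their median log2 fold change was 0.04. The share over all genes depends on the filter: 3685 of 11404 were called when at least 100 counts in 3 libraries were required. Of 43 other immediate early genes, 15 were higher and 12 lower in S100a16KO+/- hepatocytes (median 0.18 on the log2 scale). The largest rise was that of Nr4a1, which encodes the orphan nuclear receptor NUR77. It had 607, 631 and 526 counts in WT and 2582, 2545 and 3213 counts in S100a16KO+/- libraries, 4.76-fold higher (adjusted p = 4.29e-10, edgeR). Id3, an inhibitor of helix-loop-helix factors, was 3.05-fold higher, and Socs3, a feedback inhibitor of cytokine signalling, was 2.70-fold higher. The Gadd45 genes, which encode stress sensors upstream of p38 and JNK, were split. Gadd45g was 2.68-fold higher, whereas Gadd45a fell from 57.1 ± 1.06 to 7.79 ± 1.19 CPM and Gadd45b from 14.4 ± 0.266 to 4.48 ± 0.291 CPM (SD, n = 3 each). All 3 had an adjusted p under 0.05 in edgeR, the largest being 3.92e-08. Of the other EGR genes, Egr2 and Egr3 averaged 0.386 and 0.130 CPM in WT libraries and 0.836 and 0.360 CPM in S100a16KO+/- libraries, with adjusted p values of 0.0683 and 0.154, and Egr4 was not analysed here.

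Among further AP-1 and bZIP partners, 6 of 16 tested genes were higher and 2 lower, with a median log2 fold change of 0.08. Calls were made for 22.8% of all tested genes. Atf3, a stress-induced factor that pairs with Jun proteins, ran against the Fos genes. It had 1009, 1249 and 1206 counts in WT and 441, 279 and 417 counts in S100a16KO+/- libraries, a fall of the level to 32.9% of WT (log2 fold change -1.60, adjusted p = 1.02e-06, edgeR). Mafk and Maff, of the small Maf group, were 1.77-fold and 1.34-fold higher. Crem, whose short product represses cAMP response elements, was 1.76-fold higher, and Nfil3, a repressor of the same class, was 1.41-fold higher. Batf, Batf2, Batf3 and Jdp2 were under 1 CPM on average in both genotypes and were not called. Without WT replicate 1 or without WT replicate 3, 5 genes of this list passed in place of 8.

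Of 32 tested genes for serum response factor, its ternary complex partners and the MAP kinases, 3 were higher and 3 lower, with a median log2 fold change of -0.02, where 22.8% of all tested genes were called. Egfr, the receptor for epidermal growth factor, rose from 142.8 ± 3.85 to 268.7 ± 16.7 CPM (SD, n = 3 each), 1.88-fold higher (adjusted p = 3.23e-08, edgeR). The kinase genes Map3k5 and Mapkapk2 were 1.37-fold and 1.24-fold higher. Rps6ka1 and Map2k3 were lower, at 62.1% and 74.7% of WT. Of 19 tested MAP kinase phosphatases and feedback inhibitors, 1 was higher and 2 lower, with a median of -0.05, and 5 were called when at least 100 counts in 3 libraries were required. Errfi1, an inhibitor of EGFR that is itself induced by it, rose from 767.7 ± 13.8 to 995.2 ± 30.1 CPM, and Dusp1, the immediate early MAP kinase phosphatase, fell from 74.6 ± 1.44 to 54.1 ± 2.56 CPM (SD, n = 3 each). Dusp16, which acts on JNK, fell to 56.8% of WT. All 3 had an adjusted p of at most 3.25e-05 in edgeR.

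Genes around Myc showed no common direction. The share called among all tested genes was 22.8%. Of 14 tested genes of the Myc network, 4 were higher and 1 lower (median 0.06 on the log2 scale), and limma on FPKM values called 3. Genes of this list that edgeR called but that averaged under 1 FPKM were not tested by limma on FPKM. The MXD proteins compete with MYC for its partner MAX. Their genes Mxi1 and Mxd4 were 1.40-fold and 1.38-fold higher, whereas Mga, another MAX partner, fell to 60.8% of WT. Max itself did not pass (log2 fold change 0.08, 95% interval -0.14 to 0.29, adjusted p = 0.665, edgeR). Of 30 ribosome biogenesis and growth genes known as Myc targets, 5 were higher and 6 lower, with a median of -0.04. Cad, a pyrimidine synthesis enzyme, was 2.34-fold higher and Srm, spermidine synthase, was 1.61-fold higher, while Ccnd1, which encodes cyclin D1, and Ubtf, a factor of ribosomal RNA transcription, were at 69.5% and 71.6% of WT.

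**Figure D4:**
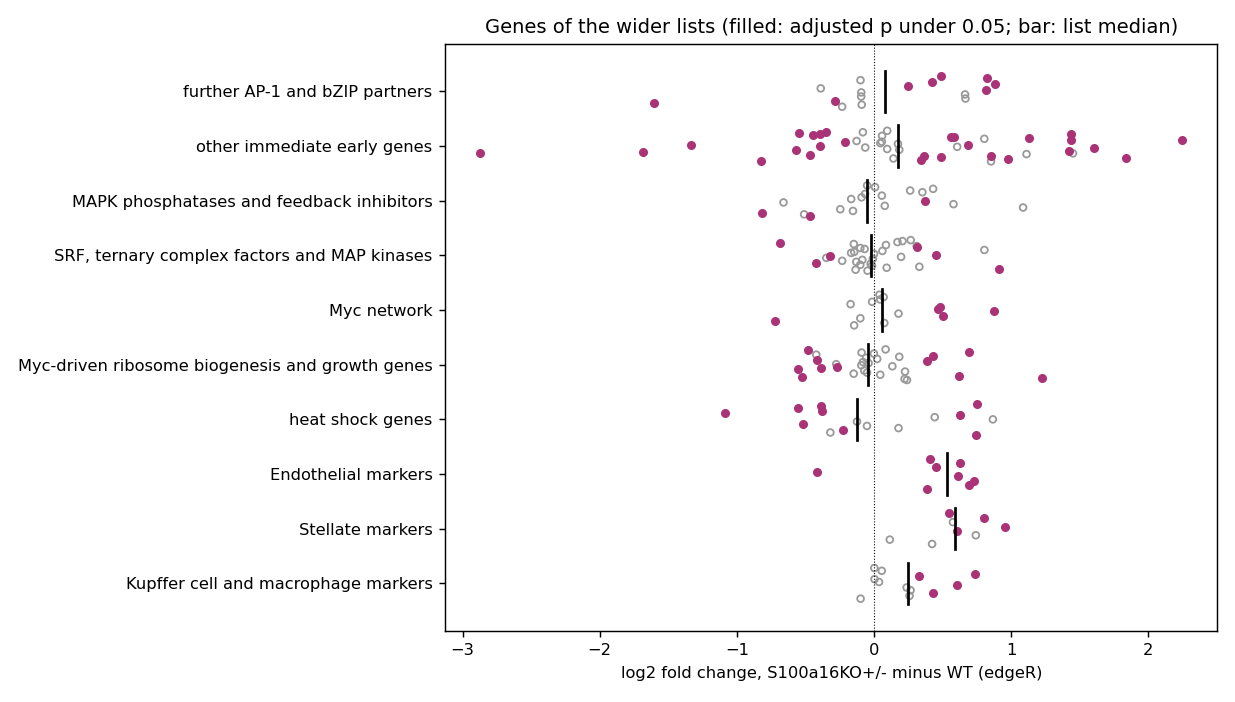
Log2 fold change, S100a16KO+/- minus WT (horizontal axis, edgeR), of each tested gene in 7 lists around the members and in 3 lists of markers of other liver cells, with genes at an adjusted p under 0.05 filled and the list median as a bar. The medians of the 7 pathway lists lie between -0.12 and 0.18, and those of the endothelial and stellate markers at 0.53 and 0.59.

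Transcripts of other liver cells were detected and differed between the genotypes. For comparison, 11.6% of all tested genes were called higher and 11.2% lower. Of 8 endothelial markers, 7 were higher in S100a16KO+/- libraries and 1, Lyve1, was lower, and their summed level went from between 244.0 and 258.2 CPM in WT to between 364.2 and 375.5 CPM. Of 8 stellate cell markers, 4 were higher and 0 lower, with sums of 39.4 to 44.1 CPM in WT and 71.3 to 78.7 CPM in S100a16KO+/- libraries. Of 12 Kupffer cell and macrophage markers, 4 were higher and 0 lower, with sums of 176.4 to 205.0 CPM and 207.7 to 227.0 CPM. Neutrophil markers summed to at most 7.39 CPM, cholangiocyte markers to at most 6.43 CPM and lymphocyte markers to at most 9.90 CPM in any library. None of 5 tested neutrophil markers was called, and 1 of 4 cholangiocyte and 1 of 6 lymphocyte markers were lower, while Ly6g was at or under 12 counts, the level that a count of 0 allows, in all 6. The endothelial, stellate and Kupffer cell sums were higher in every S100a16KO+/- library than in any WT library, as were Fos, Fosb, Fosl2 and Ier3. Single markers did not all follow, since 8 of 12 Kupffer cell and 4 of 8 stellate cell markers were not called. The part of these cells in the rise of the 4 members was not tested. In bulk RNA, a change in the number of cells of a type and a change in RNA per cell cannot be told apart.

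The genes whose profile over the 6 libraries was closest to that of a member were ranked by Pearson's correlation of log2(CPM + 1) among 9016 genes that averaged 1 FPKM or more. The libraries share their genotype contrast and depth, and the values are a description over n = 6 libraries with no test. For Fos the closest were Bicd2, Gm7652 and Per1, all with r = 0.999. Per1 is both a clock gene and an immediate early gene, and it rose from 22.8 to 49.9 CPM. For Egr1 they included Cyp4a10, which encodes a fatty acid hydroxylase, and Chd9, with r of 0.998 and 0.997. For Jun they were Epb41, Kpna6 and Cstb (r from 0.988 to 0.997) and for Myc Mrps15, Abcc2 and Hipk2 (r from 0.984 to 0.991). Of the 12 closest genes, 3 were again among the closest when log2(FPKM + 0.1) was used, Per1, Mrps15 and Hipk2, so most of the ranks rest on the scale. Among the members themselves, Fos correlated with Fosb and Fosl2 at r of 0.987 and 0.966 and with Egr1 at r of -0.944, and Jun correlated with Myc at r of 0.927.

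**Figure D5:**
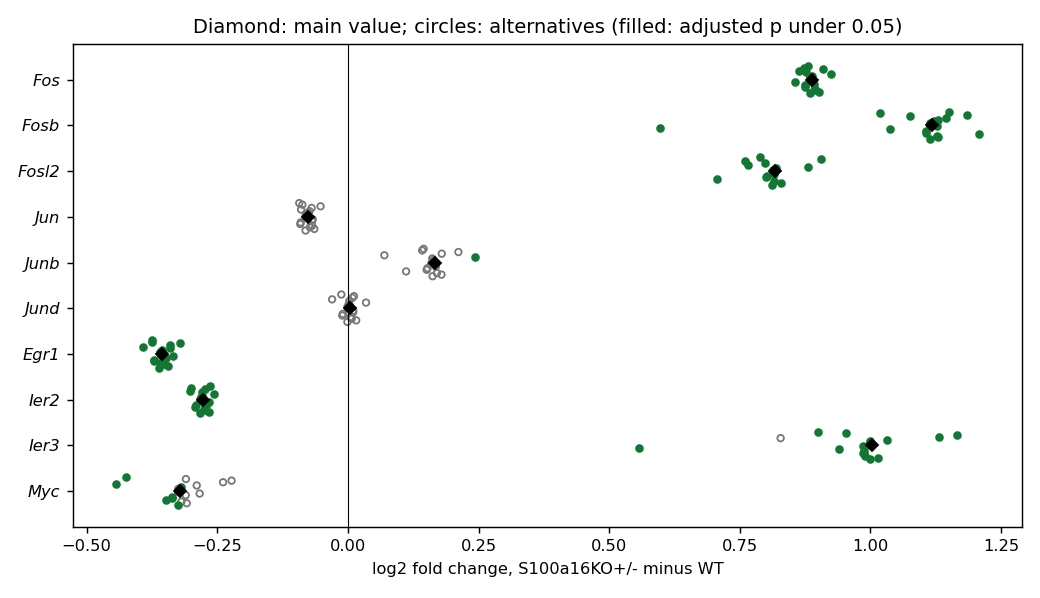
Log2 fold change of each gene (horizontal axis) in the edgeR comparison as reported (black diamond) and under 18 alternatives (circles, 16 for Fosl2), filled where the adjusted p was under 0.05. Fos stays between 0.86 and 0.92 and Egr1 between -0.39 and -0.32, while Myc crosses the threshold in 7 of 18 alternatives and the lowest values of Fosb and Ier3 come from log2(FPKM + 1).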

How the data were processed

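Total RNA of primary hepatocytes was poly(A)-selected and sequenced as pairs by a strand-marking protocol. Per the labels, the submitters' processing notes name cutadapt 1.9, HISAT2 2.0.4, UMI-tools, StringTie 1.3.4d, DESeq2, edgeR and mm10, with no role given. The authors deposited an estimated count, not scaled for library size, and an FPKM value, scaled for exon length and depth, for each gene and library. Of the table's identifiers, 25655 occur in GENCODE M21 on GRCm38, 89.7% of them with the same start and end.

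The estimated counts are whole numbers and were compared with edgeR 4.0.16 in R 4.3.3 (TMM, filterByExpr, robust quasi-likelihood fit, two-sided, no covariate), with DESeq2 1.42.0 and limma 3.58.1 as alternatives. The members and lists were chosen with earlier results of these data known. In each list, genes with an adjusted p under 0.05 and a mean FPKM of at least 1 could be named, at most 6, largest change first. Other genes named to complete a family (Egr2, Egr3, Max, the Batf genes and Jdp2, and Lyve1) were chosen after their values were seen. Closest profiles were the 3 non-member genes with the highest Pearson correlation. Of the genes these rules name, 2 are not reported here. On simulated counts edgeR recovered 8% of genes changed 1.25-fold, 52% changed 1.5-fold, 78% changed 2-fold and 86% changed 4-fold, of 50 each among 15500 tested. A further 15 genes were called falsely, beside the 4, 26, 39 and 43 recovered. The false share of the calls in this simulation was thus above the adjusted p threshold of 0.05. The simulation changed 200 genes, whereas 3643 were called in the data, so its shares do not give the recovery in the data. Replicate libraries differed by more than counting noise. Their chi-square per degree of freedom was at least 3.09, on counts divided by 4 to stand for fragments. This excess does not tell libraries of separate mice from repeat libraries of the same mouse. Intervals cover the spread between libraries.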

Additional observations from a re-analysis of the deposited data

How the results depend on the processing

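Apart from the study's criterion, Fos, Fosb, Fosl2, Egr1 and Ier2 kept their direction and an adjusted p under 0.05 in every alternative that tested them, and Ier3 in 17 of 18, the exception being the one without S100a16KO+/- replicate 2. With log2(FPKM + 1) the log2 fold change of Fosb was 0.60 and that of Ier3 was 0.56, since the added 1 is near their FPKM. Fosl2 has a mean FPKM under 1 and was not tested on FPKM. Jun was not called in any alternative. The log2 fold change of Jund ranged from -0.030 to 0.035 with 1 library left out. It was -0.00090 with DESeq2, -0.00064 with median-ratio size factors, -0.011 with library sizes without mitochondrial genes, -0.0097 without the 20 most abundant genes, and -0.00017 with no low-count filter.

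With the study's criterion (unadjusted p under 0.05 and at least 2-fold), 721 of all tested genes, 2 members (2 higher, 0 lower) and 15 genes of the wider lists (66 by adjusted p) were called. Over all tested genes, 3643 were called, 2228 with limma on log2(FPKM + 1) and 2208 on log2(FPKM + 0.1), where 9054 genes were tested. With 1 library left out, 2734 to 3302 genes and 6 to 7 members were called. In order of CPM in place of FPKM, 2 of 10 members kept their rank. Of the 12 closest profiles, 3 were found again on log2(FPKM + 0.1). The summed FPKM of the Fos family was 1.80 to 1.91 times the WT level with 1 library left out, and that of the Jun family 0.994 to 1.03 times.

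The labels give both genotypes replicate numbers 1 to 3. Same-numbered libraries did not deviate together (correlations of -0.09, -0.06 and 0.10), so the numbers were not taken as pairs. With the replicate block, 3082 genes and 7 members were called, Myc being the additional one (log2 fold change -0.32, adjusted p = 0.0274, edgeR). Leaving out WT replicate 1 and S100a16KO+/- replicate 2 together was added after the data were seen. It gave 3412 genes and 7 members, and leaves 2 libraries in each genotype.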

Other observations

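Heat shock genes, which often accompany immediate early genes in stressed cells, showed no common direction. Of 15 tested genes, 3 were higher and 6 lower in S100a16KO+/- hepatocytes (median -0.12 on the log2 scale). Among all tested genes 22.8% were called, 11.6% higher and 11.2% lower. Hspa8, the constitutive HSC70 chaperone, rose from 303.8 ± 7.49 to 469.8 ± 5.36 CPM (SD, n = 3 each). Hsph1, a nucleotide exchange factor, and Bag3, a co-chaperone of HSP70, were 1.69-fold and 1.67-fold higher. Hspb1, a small heat shock protein, fell from 16.2 ± 1.39 to 7.65 ± 0.788 CPM, and Hspd1 and Hsp90aa1, the mitochondrial and the inducible cytosolic chaperone, were at 68.3% and 69.7% of WT. All 6 had an adjusted p under 0.05 in edgeR's test over all tested genes, the largest being 0.000910.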
